A study of Mus musculus with 6 samples.

Results

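AMP-activated protein kinase (AMPK) is the enzyme with which cells sense low energy charge, and the genes of its subunits and of the kinases that switch it on were followed in the hypothalamus of diet-induced obese (DIO) mice. The 9 genes were Prkaa1 and Prkaa2 (catalytic α subunits), Prkab1 and Prkab2 (β subunits), Prkag1, Prkag2 and Prkag3 (γ subunits), Stk11 (the upstream kinase LKB1) and Camkk2 (the calcium-dependent upstream kinase). Every probe whose gene name in the scanner files was one of these 9 symbols was taken, which gave 19 of 56605 probes and 9 of 37074 gene names. A probe was tested where the scanner called it well above background on every array of vehicle, of GSK-J4 or of both, and 18 of the 19 met this, among 34443 in all.

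AMPK works as a trimer in which the α subunit carries the kinase domain, the β subunit holds the complex together and binds glycogen, and the γ subunit binds AMP, ADP and ATP. LKB1 phosphorylates the activation loop of the α subunit when AMP or ADP is bound, and CaMKK2 does so when cell calcium rises. In the hypothalamus AMPK is known as an integrator of hunger signals, with activity raised by ghrelin and fasting and lowered by leptin and glucose. The arrays measured transcripts, and neither AMPK protein nor its phosphorylation was measured here.

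RNA from the hypothalamus of male C57BL/6J mice was hybridised to 6 Agilent 1-colour mouse arrays, 3 labelled GSK-J4 and 3 labelled vehicle, each from a different mouse. All the mice, controls included, had eaten a high-fat diet with 60 kcal% fat, which the methods start at 6 weeks of age and continue for 16 weeks. GSK-J4 inhibits the demethylases Kdm6a and Kdm6b, which remove methyl groups from lysine 27 of histone H3, and its dose was 30 mg kg−1 against 0 in the vehicle group. The design text places the measurement on day 4. The methods describe a longer course of daily intraperitoneal injection and name no day for the arrays, so day 4 rests on the design text alone. They give injection at ZT 2 h and collection of tissue at ZT 6 h, where ZT is the time since lights on. No lean group was among these arrays.

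The groups differed in more than treatment. The vehicle arrays shared a slide and a scan, and the GSK-J4 arrays shared another, so that slide, scan and treatment cannot be told apart. Raw signal was lower on the GSK-J4 arrays, with a 75th percentile of 406 to 461 units against 787 to 916 on the vehicle arrays, and the share of probes well above background was 57.7% to 58.7% against 62.8% to 63.6%. The part of these gaps in the results was not tested. Of 10 hypothalamic marker genes, 6 had a tested probe (Hcrt, Oxt, Agrp, Npy, Pomc and Sst). Agrp, Hcrt and Oxt were dim, with log2 signals of 4.43 to 5.2, 4.72 to 5.98 and 5.21 to 6.44 over the 6 arrays. The lowest signals well above background were 3.79 to 4.64, and Agrp was well above background on only 5 arrays. Pomc, Npy and Sst were brighter, at 7.79 to 9.05, 11.46 to 12.04 and 15.14 to 15.36. Npy and Pomc were higher in the GSK-J4 group (log2 fold changes 0.42 and 0.86, limma adjusted p = 0.0241 and 0.0212). The share of all genes that were higher is given below with the pathway genes. The single probes of Pmch, Avp and Trh were well above background on only 3 of the 6 arrays. Both probes of Nkx2-1 were well above background on none. Vehicle array 1 stood apart in choroid plexus genes, whose summed level ranged from 2832 to 99834 signal units over the vehicle arrays and from 2418 to 11580 over the GSK-J4 arrays. Summed levels overlapped between the groups for neuron markers (109670 to 147450 for GSK-J4 against 124520 to 137170) and oligodendrocyte markers (114210 to 118200 against 112270 to 132980). Among all tested probes taken singly, the groups did not overlap in 45.6%. Summed levels were higher in the GSK-J4 group, without overlap, for astrocyte markers (48306 to 51664 against 43859 to 47498) and for microglia markers (7770 to 8094 against 5954 to 6760, without Csf1r, which lacked a value on 1 array). However, 0 of 5 genes of either list passed the test, and the genes did not all rise. Log2 fold changes were 0.25, 0.17 and 0.19 for Aldh1l1, Slc1a3 and S100b, but -0.12 for Gfap and -0.10 for Aqp4. Among microglia markers they were 0.58, 0.30 and 0.27 for Aif1, Cx3cr1 and Csf1r, but -0.01 for P2ry12 and 0.03 for Tmem119. The part of these markers in the results was not tested.

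The sequences below are those on which the results turn, each 5′ to 3′ and in the sense of the transcript. The Stk11 probe is shown because it was the probe past the test among the upstream kinases, and it lies at chr10:79590785-79590844 on the plus strand (mm9, as are all coordinates here).
Stk11 A_55_P2166399: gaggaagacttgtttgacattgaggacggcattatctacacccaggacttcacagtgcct
The next pair is shown because both are Camkk2 probes that start within 32 bases of each other and share the 12 bases in capitals. The first of these bases lies at the same place in the genome for both probes, and the exact base of the junction was not determined.
Camkk2 A_55_P2737194: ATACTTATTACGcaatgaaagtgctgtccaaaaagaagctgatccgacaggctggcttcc
Camkk2 A_55_P2730871: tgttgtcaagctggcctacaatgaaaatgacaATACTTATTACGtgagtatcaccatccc
The 60 bases of A_55_P2737194 are spread over 965 bases of chromosome 5 (chr5:123206615-123207579, minus strand), so this probe crosses a splice junction. A_55_P2730871 covers 60 consecutive bases (chr5:123207552-123207611) and continues past the shared bases into genomic sequence that the first probe skips. For 2 further probes designed on Ensembl transcripts, 30 of the 60 bases are given.
Prkag2 A_55_P2715316: tctgtaaatgttcatttcttgatagtcatg
Camkk2 A_55_P2731126: tatagggacactaggtcctacagtgggtca

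Over the 9 genes, 2 probes passed the limma test at an adjusted p of 0.05, which was adjusted over all 34443 tested probes. Stk11 was higher in the GSK-J4 group. The other was a probe for an Ensembl transcript of Prkag2, lower in the GSK-J4 group, which entered the test only because it was well above background on the vehicle arrays, so that its call is given as a count and supports nothing. That made 1 of 18 probes higher, where 8.38% of all tested probes were higher, and 1 of 18 lower, where 8.40% were lower. The median log2 fold change of the 18 probes was -0.01, with 9 above and 9 below 0, and that of all tested probes was 0.02. In 6 of the 18 probes the groups did not overlap, against 45.6% of all tested probes, and 5 of 18 had an unadjusted limma p of at most 0.05 (2 higher, 3 lower), against 36.5%. At the thresholds of the methods (1.5-fold and an unadjusted p of 0.05), 0 probes were higher, where 4.80% of all probes were, and 1 was lower, where 7.85% were. In whole tissue, fewer cells of a type and less RNA per cell cannot be told apart.

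**Figure D1:**
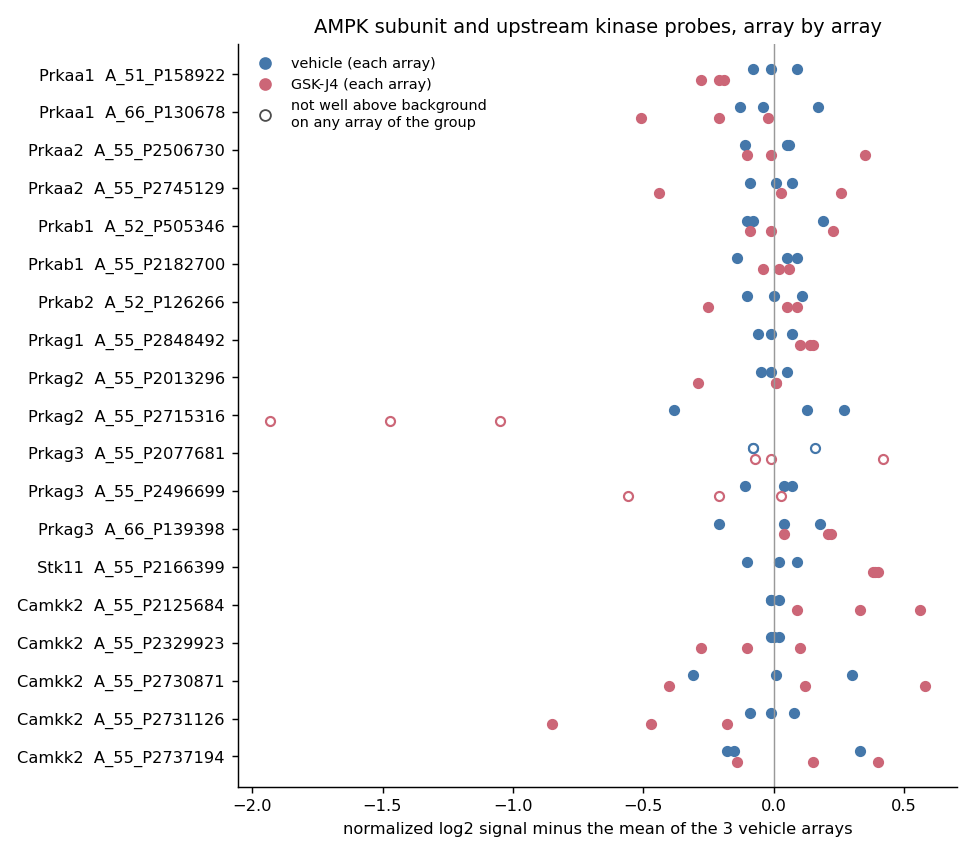
Normalized log2 signal of each of the 19 probes on each of the 6 arrays, less the mean of the 3 vehicle arrays of that probe, with blue points for vehicle, red points for GSK-J4 and open points where no array of the group was well above background. The GSK-J4 points of Stk11 lie together to the right of its vehicle points, and those of Prkag2 A_55_P2715316 lie far to the left but are open.

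Among the catalytic subunits, neither gene had a probe past the test. Prkaa1, which encodes α1, had normalized log2 signals of 10.34, 10.44 and 10.27 on the vehicle arrays and of 10.07, 10.16 and 10.14 on the GSK-J4 arrays with probe A_51_P158922. Every GSK-J4 array was below every vehicle array, and yet the difference was small. The log2 fold change was -0.22 (SE 0.08, 95% interval -0.42 to -0.03, limma adjusted p = 0.0996), and the two-sided exact permutation test over 3 and 3 arrays gave p = 0.1, the smallest it can give. The probe lies at chr15:5131426-5131485. The other Prkaa1 probe, A_66_P130678, is drawn from a predicted RefSeq transcript at chr15:5111888-5111947 and begins and ends with the same 15 bases, CCCTCACATCATCAA. It read 7.20, 6.99 and 6.90 on the vehicle arrays and 6.52, 6.82 and 7.01 on the GSK-J4 arrays, so that the groups overlapped, with a log2 fold change of -0.25 (SE 0.15, interval -0.62 to 0.13, limma adjusted p = 0.294).

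Prkaa2, which encodes α2, did not separate the groups with either probe. With A_55_P2506730 the signals were 9.76, 9.93 and 9.92 for vehicle and 10.22, 9.77 and 9.86 for GSK-J4, and a single GSK-J4 array lay above all the others. The log2 fold change was 0.08 (SE 0.14, interval -0.26 to 0.41, limma adjusted p = 0.713). The junction probe A_55_P2745129, whose 60 bases are spread over 428 bases of chromosome 4, read 6.20, 6.14 and 6.04 for vehicle and 6.39, 5.69 and 6.16 for GSK-J4. Here the GSK-J4 arrays lay on both sides of the vehicle arrays, and the log2 fold change was -0.05 (interval -0.51 to 0.41, limma adjusted p = 0.871).

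Patterns over the 6 arrays were compared among 20202 genes that were well above background on all 6. The measure was the root mean square difference of values centred on each gene's mean. The genes nearest to Prkaa1 (A_51_P158922) were Slc30a9 (0.0226 on the log2 scale), Mprip (0.0228) and Nup160 (0.0240). Those nearest to Prkaa2 (A_55_P2506730) were Nol8 (0.0317), Gm13247 (0.0376) and Vwc2 (0.0394). With 6 values a gene and so many genes compared, close patterns can arise by chance, and shared regulation was not tested. The root mean square deviation of Prkaa1 and Prkaa2 about their own means was 0.126 and 0.151.

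The β subunits differed between the groups by at most 0.04 on the log2 scale. Prkab1, which encodes β1, read 7.92, 7.63 and 7.65 for vehicle and 7.72, 7.64 and 7.96 for GSK-J4 with A_52_P505346, and 6.48, 6.25 and 6.44 against 6.35, 6.41 and 6.45 with A_55_P2182700. The groups overlapped with both probes. Their log2 fold changes were 0.04 (interval -0.27 to 0.35, limma adjusted p = 0.838) and 0.01 (interval -0.21 to 0.23, limma adjusted p = 0.917). Prkab2, which encodes β2, read 10.77, 10.87 and 10.98 for vehicle and 10.92, 10.96 and 10.62 for GSK-J4 with its single probe. These also overlapped, with a log2 fold change of -0.04 (SE 0.12, interval -0.33 to 0.26, limma adjusted p = 0.839). The intervals of these 3 probes did not reach 1.5-fold in either direction.

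Of the γ subunits, Prkag1 (γ1) had a single probe at 12.87, 12.74 and 12.79 for vehicle and 12.95, 12.90 and 12.94 for GSK-J4. All GSK-J4 arrays were above all vehicle arrays, by a log2 fold change of 0.13 (SE 0.07, interval -0.04 to 0.30) that did not pass the test (limma adjusted p = 0.227). Prkag2 (γ2), the gene mutated in a human glycogen-storage cardiomyopathy, gave different readings with its 2 probes. The RefSeq mRNA probe A_55_P2013296 read 13.81, 13.75 and 13.71 for vehicle and 13.47, 13.77 and 13.77 for GSK-J4, with overlap and a log2 fold change of -0.09 (SE 0.11, interval -0.35 to 0.17, limma adjusted p = 0.578).

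The Ensembl transcript probe of Prkag2, A_55_P2715316, lies at chr5:24381263-24381322, upstream of the RefSeq probe by 12672 bases in the direction of transcription. It was well above background on 3 of 3 vehicle arrays, at 5.01, 4.36 and 4.87, and on 0 of 3 GSK-J4 arrays, where it read 2.81, 3.27 and 3.69. The GSK-J4 readings are only bounds. The vehicle mean was 1.18-fold above the mean, on the log2 scale, of the lowest signals well above background on the GSK-J4 arrays. Vehicle array 2, at 4.36, lay below each of those lowest signals, so no least decrease is given. The limma adjusted p of 0.0261 belongs to the fitted readings (group means 4.74 ± 0.34 and 3.26 ± 0.44, SD, n = 3 each) and does not test that 1.18-fold gap. The lowest signal well above background was itself higher on the GSK-J4 arrays, at 4.39 to 4.64 against 3.79 to 3.90 on the log2 scale. With a filter that asked for all 6 arrays the probe was not tested. The call was also lost when any 1 array other than GSK-J4 array 3 was left out. Over the whole array, 9 to 21 probes stayed lower without a vehicle array, against 2893 with all 6 arrays.

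Prkag3 (γ3), the subunit typical of fast skeletal muscle, was dim throughout. Its probe A_55_P2077681 was well above background on 0 of 6 arrays and was not tested. A_55_P2496699 was well above background on 3 of 3 vehicle and 0 of 3 GSK-J4 arrays, but its readings of 4.29, 4.14 and 4.32 for vehicle lay below the lowest signal well above background on the GSK-J4 arrays, where it read 4.28, 4.04 and 3.69, so no fold is given (limma adjusted p = 0.318). A_66_P139398 was detected on all 6 arrays, at 4.95, 5.20 and 5.34 for vehicle and 5.20, 5.37 and 5.38 for GSK-J4, with overlap and a log2 fold change of 0.15 (interval -0.15 to 0.46, limma adjusted p = 0.401). Of 6 skeletal muscle markers, 5 were tested, and Ckm was undetected (not well above background on the 6 arrays). Of the 5 tested, 3 (Mylpf, Tnnt3 and Casq1) were higher in the GSK-J4 group, where 9.0% of all tested genes were higher. These 3 were dim, at log2 signals of 4.63 to 5.85 over the 6 arrays. The lowest signals well above background were 3.79 to 3.90 on the vehicle arrays and 4.39 to 4.64 on the GSK-J4 arrays. The summed level of the 5 was 484 to 547 signal units for vehicle and 625 to 843 for GSK-J4. The part of muscle transcripts in the Prkag3 values was not tested.

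Stk11, which encodes the kinase LKB1, rose in the GSK-J4 group. Its single probe read 10.55, 10.67 and 10.74 on the vehicle arrays and 11.05, 11.03 and 11.04 on the GSK-J4 arrays. The lowest GSK-J4 array was above the highest vehicle array, and the GSK-J4 arrays were nearly equal, at 11.04 ± 0.01 against 10.65 ± 0.09 (SD, n = 3 each). The difference was 0.39 on the log2 scale, or 1.31-fold (SE 0.08, interval 0.20 to 0.57, limma adjusted p = 0.0294, higher in 3 of 3 arrays), which stayed under the 1.5-fold of the methods. The exact permutation test gave p = 0.1, the smallest it allows. The probe has 48.3% GC, and 647 tested probes of that GC content showed a median of 0.19, and 15.6% of them were higher and 2.16% lower. With the signals of each array corrected for GC content the Stk11 difference was 0.25 and did not pass (limma adjusted p = 0.0964). Leaving out any 1 array also ended the call. Over the whole array, 2 to 4 probes stayed higher without a vehicle array and 983 to 2137 without a GSK-J4 array, against 2888 with all 6 arrays.

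**Figure D2:**
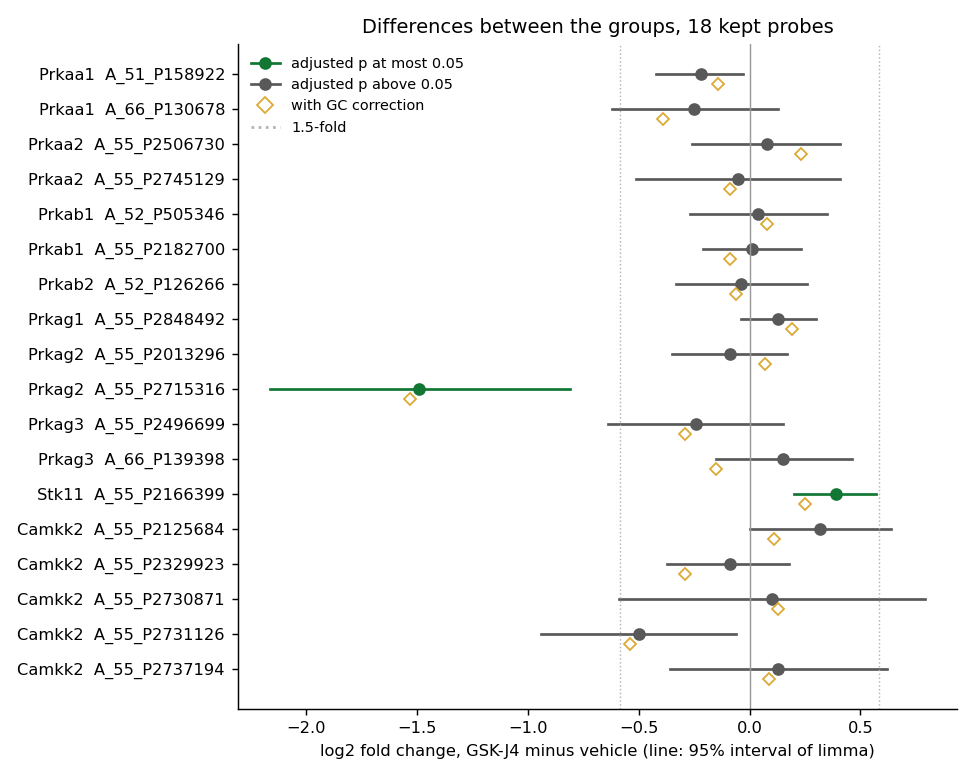
Log2 fold change (GSK-J4 minus vehicle) of the 18 tested probes with the 95% interval of limma, in green where the adjusted p was at most 0.05, with open diamonds for the value after GC correction and dotted lines at 1.5-fold. Stk11 at 0.39 and Prkag2 A_55_P2715316 are the green probes, and the fitted value of the latter is no fold because its GSK-J4 arrays were not well above background.

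Camkk2, which encodes the calcium-dependent AMPK kinase, had 5 probes, of which 0 passed the test, and they did not run in 1 direction. The RefSeq probe A_55_P2125684 read 9.32, 9.32 and 9.35 for vehicle and 9.66, 9.42 and 9.89 for GSK-J4. All GSK-J4 arrays were higher, by 0.32 on the log2 scale (SE 0.13, interval 0.00 to 0.64, limma adjusted p = 0.134). Tested probes with the same 55% GC had a median of 0.24, and the GC-corrected difference was 0.11. The Ensembl probe A_55_P2731126 went the other way, at 8.50, 8.42 and 8.59 for vehicle and 7.66, 8.04 and 8.33 for GSK-J4. All GSK-J4 arrays were lower, by a log2 fold change of -0.50 (SE 0.18, interval -0.94 to -0.06, limma adjusted p = 0.106) that the GC correction left at -0.54. These 2 probes lie 20070 and 16701 bases from the first Camkk2 probe, and their changes differed by 0.82 (exact permutation p = 0.1, the smallest possible, and 0.5 after adjustment over the 15 pairs of tested probes of the same gene).

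The remaining Camkk2 probes overlapped between groups. The RefSeq probe A_55_P2329923 read 14.43, 14.44 and 14.46 for vehicle and 14.54, 14.34 and 14.16 for GSK-J4, with a log2 fold change of -0.09 (interval -0.37 to 0.18, limma adjusted p = 0.577). Its vehicle arrays were nearly equal, while its GSK-J4 arrays spread over both sides of them. The junction-crossing probe A_55_P2737194 read 7.77, 7.29 and 7.26 for vehicle and 7.84, 7.30 and 7.59 for GSK-J4, and A_55_P2730871, which reads on into the genome after the 12 shared bases, read 8.07, 7.78 and 7.46 against 8.35, 7.89 and 7.37. Their log2 fold changes of 0.13 (interval -0.36 to 0.62, limma adjusted p = 0.658) and 0.10 (interval -0.59 to 0.79, limma adjusted p = 0.822) differed by 0.03 (exact permutation p = 1).

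**Figure D3:**
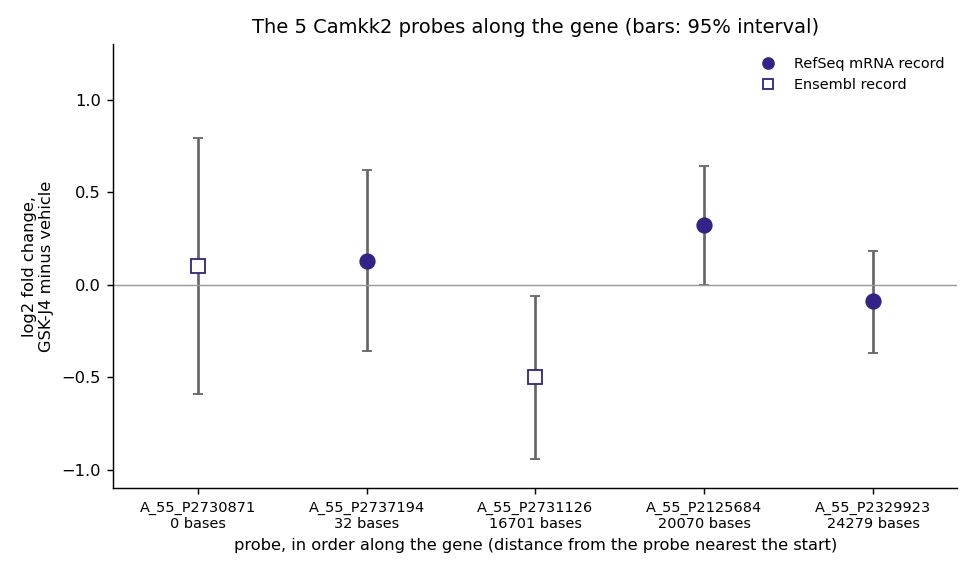
Log2 fold change (GSK-J4 minus vehicle) of the 5 Camkk2 probes with the 95% interval of limma, placed in order along the gene with the distance of each from the probe nearest its start, filled circles for RefSeq mRNA records and open squares for Ensembl records. The probe at 16701 bases lies at -0.50 and the probe at 20070 bases at 0.32.

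Differences over the whole array varied with the kind of record a probe was designed on. Among all tested probes, those designed on RefSeq mRNA records (21919 probes) shifted by a median of 0.06 on the log2 scale, and 8.85% of them were higher and 4.29% lower, and those designed on Ensembl records only (4024 probes) shifted by a median of -0.14, and 5.22% of them were higher and 16.9% lower. The AMPK and upstream kinase genes had 15 RefSeq mRNA probes, of which 14 were tested, 1 was higher and 0 were lower, and 3 Ensembl probes, of which 1 was lower and 0 were higher. The lower one was Prkag2 A_55_P2715316, which entered the test only through the vehicle arrays, so its call supports nothing here either. Prkag2 A_55_P2715316 and Camkk2 A_55_P2731126 both have 45% GC, at which the median of all tested probes was 0.08.

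**Figure D4:**
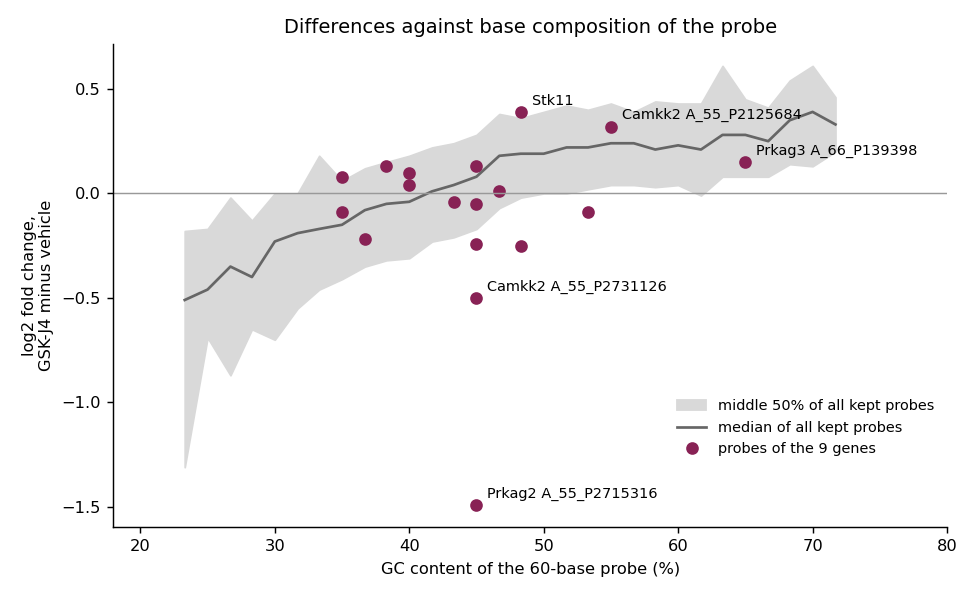
Log2 fold change (GSK-J4 minus vehicle) against the GC content of the probe, with the median (line) and the middle 50% (band) of all tested probes at each GC content held by at least 20 of them, and points for the 18 probes of the 9 genes. The median of all probes runs from -0.15 at 35% GC to 0.24 at 55% GC, Stk11 lies just above the band, and Prkag2 A_55_P2715316 lies far under it.

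Other genes of the pathway were described with 1 probe a gene, over 22117 genes, of which 9.0% were higher and 7.77% lower with a median log2 fold change of 0.04. Of 52 such genes, 5 were higher and 3 lower, with a median of 0.00. Among 20 genes of the LKB1 complex and other upstream or modulating genes, 2 were higher, 3 were lower and 15 did not pass the test, and the median was -0.11. Sesn2, a stress-induced sestrin known to promote AMPK activation, rose by 0.56 on the log2 scale (SE 0.09, limma adjusted p = 0.0204), with 9.68, 9.80 and 9.57 for vehicle and 10.33, 10.22 and 10.17 for GSK-J4. Tab1, the partner of the kinase TAK1, rose by 0.30 (limma adjusted p = 0.0492). Both probes have 55% GC, where the median of all tested probes was 0.24. With the GC correction the difference was 0.35 for Sesn2 (limma adjusted p = 0.0593 over genes) and 0.09 for Tab1 (limma adjusted p = 0.449), neither past the test.

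The lower genes of that list were a pair of scaffold genes and a folliculin partner. Ksr2, a scaffold that binds AMPK and whose loss makes mice obese, had the largest change of the list, at 8.03, 7.99 and 8.35 for vehicle and 7.19, 7.0 and 7.65 for GSK-J4. All GSK-J4 arrays were lower, by a log2 fold change of -0.84 (SE 0.20, limma adjusted p = 0.0415), and the GC-corrected value was -0.86. Ksr1 fell by 0.51 on the log2 scale (limma adjusted p = 0.0460) and Fnip2, which binds folliculin and AMPK, fell by 0.49 (limma adjusted p = 0.0355). The Ksr1 and Fnip2 probes have 23.3% and 28.3% GC, where the medians of all tested probes were -0.51 and -0.40. With the GC correction the log2 fold change was -0.35 for Ksr1 (limma adjusted p = 0.105 over genes) and -0.29 for Fnip2 (limma adjusted p = 0.117), neither past the test. The partners that form the active LKB1 complex did not pass the test, with log2 fold changes of -0.17 for Strada, -0.25 for Stradb, -0.12 for Cab39 and -0.20 for Cab39l (limma adjusted p from 0.0571 to 0.726). Cab39l read 10.82 on vehicle array 1, the array with high choroid plexus signal, and 9.41 to 9.88 on the other 5 arrays.

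Among 12 AMPK-related kinases that LKB1 also phosphorylates, 2 were higher, 0 were lower and 10 did not pass, with a median of 0.14. The microtubule-affinity kinases Mark2 and Mark4 rose by 0.34 (limma adjusted p = 0.0437) and 0.27 (limma adjusted p = 0.0485). With the GC correction their differences of 0.20 (limma adjusted p = 0.157 over genes) and 0.23 (limma adjusted p = 0.0898) did not pass. Brsk2, a kinase of neuronal polarity, had the largest difference of the list at 0.74 (SE 0.20), which did not pass (limma adjusted p = 0.0563). Its probe read 6.51, 6.65 and 6.37 for vehicle and 7.67, 7.0 and 7.06 for GSK-J4. It has 55% GC, where the median of all tested probes was 0.24, and its GC-corrected difference was 0.53 (limma adjusted p = 0.12 over genes). Among 20 AMPK substrates, 1 was higher, 0 were lower and 19 did not pass, with a median of 0.01. The one that rose was Cry1, the clock repressor that AMPK marks for degradation, at 5.86, 5.94 and 5.75 for vehicle and 6.51, 6.38 and 6.49 for GSK-J4 (log2 fold change 0.61, SE 0.08, limma adjusted p = 0.0152) with probe A_55_P2880103. This probe has 60% GC, where the median of all tested probes was 0.23, and its GC-corrected difference was 0.36. The other Cry1 probe, A_52_P420500 with 23.3% GC, was well above background on 3 of 3 vehicle arrays, at 4.33, 4.88 and 4.02. On the GSK-J4 arrays it read 4.41, 3.17 and 4.27, with 0 of 3 well above background, so these readings are only bounds. Its fitted log2 fold change pointed the other way, at -0.46 (SE 0.39, limma adjusted p = 0.432 over all probes), and the groups overlapped. The rise in Cry1 therefore rests on a single probe. Leaving out any 1 vehicle array left 0 of the 52 genes past the test in either direction. It also left only 2 to 4 probes higher and 9 to 21 lower over the whole array. With the GC correction, adjusted over genes, 1 of the 52 was higher and 0 were lower. The higher one was Hdac5 (0.51 with the correction, 0.35 without), which had not passed without it, and for Cry1 the other probe was then the brighter and did not pass. With the same probes kept, Hdac5 and Cry1 were higher, and Ksr2 lay at the threshold (limma adjusted p = 0.0508 over genes and 0.0496 over all probes).

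**Figure D5:**
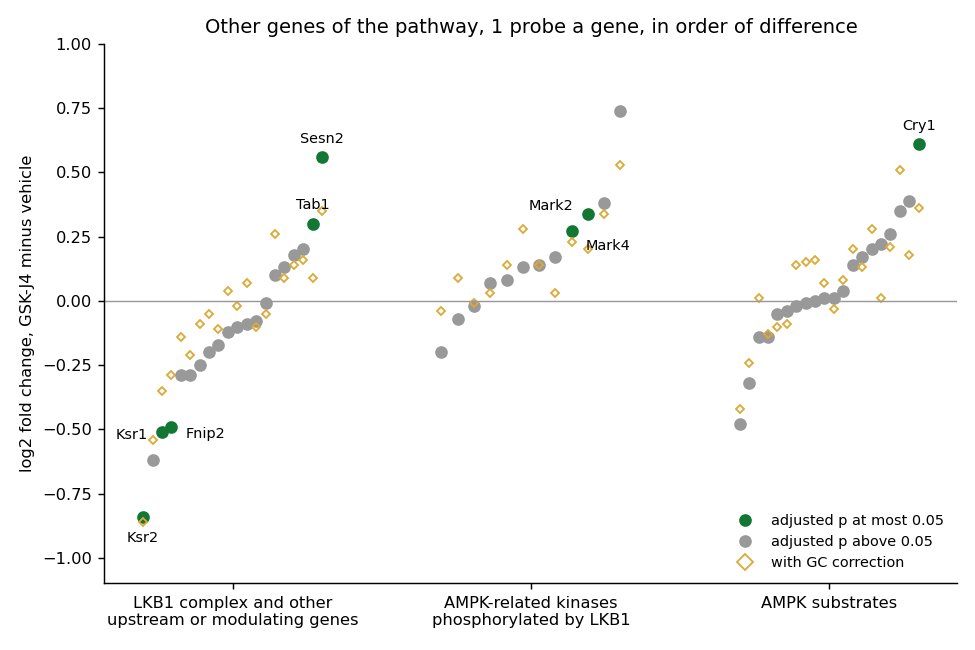
Log2 fold change (GSK-J4 minus vehicle) of the 52 other pathway genes in 3 lists, each gene at 1 probe and in order of its difference, in green with a name where the adjusted p was at most 0.05, and with open diamonds for the same probe after GC correction. The green genes lie between -0.84 (Ksr2) and 0.61 (Cry1), and the grey genes between -0.62 and 0.74.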

How the data were processed

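The authors hybridised Cy3-labelled RNA to SurePrint G3 arrays and deposited the background-corrected intensity of each spot with its flags (Agilent Feature Extraction 10.7.1.1). They also deposited a log2 table, described as quantile normalized in GeneSpring (14.8), which served as an alternative. Control and outlier spots were left out. Log2 intensities were averaged per probe (59305 spots, 56605 probes) and quantile normalized with limma 3.58.1 in R 4.3.3. Probes well above background on all 3 arrays of a group were kept, none of them saturated. The comparison of the groups used lmFit and eBayes without covariates (two-sided), and p-values were adjusted by Benjamini-Hochberg over 34443 probes, or over 22117 genes at the probe of highest mean. Array number limits the precision. Figures were drawn with matplotlib.

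Named were the 9 genes with every probe, pathway genes past an adjusted p of 0.05, the largest change of each list, and the 3 genes nearest Prkaa1 and Prkaa2. Members and lists were chosen with earlier results of these data known. Coordinates are those of the files (mm9). RefSeq names (GRCm38.p6) matched 9 of 9 symbols. The GC correction subtracted from each array a lowess curve (span 30%) of its log2 signal against probe GC content. Other alternatives were 75th percentile scaling, normexp, other filters, other tests, a replicate block and leaving out each array.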

Additional observations from a re-analysis of the deposited data

How the results depend on the processing

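Of the 18 tested probes, 1 was higher and 1 lower. The higher count became 2 with 75th percentile scaling, where Prkag1 also passed (log2 fold change 0.33, limma adjusted p = 0.0224). It became 2 with normexp, where Camkk2 A_55_P2125684 also passed (0.38, limma adjusted p = 0.0374). It became 0 with the methods' t-test (unequal variances) or the GC correction. The lower count became 0 with a filter on all 6 arrays and with both forms of the methods' t-test. With the replicate block, alone or with the GC correction, 0 probes of 34443 and 0 pathway genes passed in either direction, and the deviations of arrays of the same number correlated at 0.01, 0.03 and 0.08, so the numbers were not taken as pairs. Leaving out 1 array gave 0 higher and 0 to 2 lower member probes. The 2 came without GSK-J4 array 3, where Camkk2 A_55_P2731126 also passed (log2 fold change -0.66, limma adjusted p = 0.0492). Without a vehicle array, 11, 19 or 25 probes of the whole array were called, against 2888 higher and 2893 lower. At the methods' thresholds the lower count of 1 became 0 with normexp or the filter on all 6 arrays, and 1 to 2 with an array left out. Stk11 kept its direction at 0.25 to 0.48 and passed in 8 of 18 alternatives (adjusted p 0.0153 to 0.181).

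The 5 higher pathway genes became 10 with 75th percentile scaling, 2 with no filter or a looser detection flag, 3 with the equal-variance and 0 with the unequal-variance t-test, 1 (Hdac5) with the GC correction (2, Hdac5 and Cry1, with each gene's probe kept, chosen after seeing the data), 3 with the mean of a gene's probes, and 0 to 3 with an array left out. The 3 lower genes became 0 with no filter, the looser flag, the unequal-variance t-test or the GC correction (also with each gene's probe kept; adjusted over all probes instead, Ksr2 passed), 1 with the equal-variance t-test, 5 with a trended and robust eBayes, and 0 to 3 with an array left out (0 without any 1 vehicle array).

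Directions turned for probes that had passed no test. With 75th percentile scaling the log2 fold changes were -0.07 and -0.12 for Prkab1 (A_52_P505346 and A_55_P2182700), 0.05 for Prkab2, 0.20 for Prkag2 A_55_P2013296, and 0.25 and -0.01 for Camkk2 A_55_P2329923 and A_55_P2730871. With the GC correction, with or without the block, they were -0.09 for Prkab1 A_55_P2182700, 0.07 for Prkag2 A_55_P2013296 and -0.15 for Prkag3 A_66_P139398, and with normexp 0.01 for Prkaa2 A_55_P2745129. With an array left out the values ran from -0.06 to 0.16 (A_55_P2506730) and from -0.20 to 0.15 (A_55_P2745129) for Prkaa2, from -0.05 to 0.13 (A_52_P505346, with 0.00 and -0.01 among them) and from -0.06 to 0.06 (A_55_P2182700) for Prkab1, from -0.10 to 0.07 for Prkab2, up to 0.01 for Prkag2 A_55_P2013296, and from -0.14 to 0.35 for Camkk2 A_55_P2730871. The cause was not tested.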
